A study of Mus musculus with 39 samples.

Results

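The genes described here encode the nuclear subunits of the oxidative phosphorylation system, measured in the liver of mice drinking phenobarbital. They were chosen by gene name alone: each Affymetrix probe set whose only symbol begins with Ndufa, Ndufb, Ndufc, Ndufs, Ndufv, Sdha to Sdhd, Uqcr, Cox4 to Cox8 or Atp5 was taken, and 1 probe set, the brightest on average, stood for each gene. This gave 94 of the 18193 genes on the array, of which 90 were among the 12580 genes with enough signal to test. The rule also brings in neighbours of the subunits, so the genes were divided by role into 73 subunits used in liver (72 tested), 12 assembly factors, 8 isoforms that serve mainly other tissues (5 tested) and Cox7a2l, which helps complexes III and IV to join into supercomplexes. Of the 73 subunits, 34 belong to complex I (33 tested), 4 to complex II, 8 to complex III, 10 to complex IV and 17 to complex V. Ndufa4 was counted with complex IV, of which it is now known to be a part.

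Livers came from male B6C3F1/Crl mice, a cross of C57BL/6 and C3H/He, aged 29 to 32 days on arrival and given 5 days to acclimatise. One group on each day is labelled as control, and the other took 0.05% (w/v) phenobarbital in their drinking water. The labels give durations of 1, 7, 28 and 91 days, with 5 arrays in every group except the 4 controls of day 1, 39 arrays in all. No group carries a transgene or an allele, and each array is described as a whole liver extract, and nothing states that arrays of a group are different animals. The p-values therefore refer to the spread among arrays, which may be technical. A whole liver extract holds every cell type of the organ, and fewer cells of a type cannot be told apart from less RNA per cell.

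Oxidative phosphorylation takes electrons from NADH at complex I and from succinate at complex II, passes them through complex III to complex IV, where oxygen is reduced, and uses the proton gradient built on the way to make ATP at complex V. Most subunits are encoded in the nucleus and imported into the mitochondrion, while a few are encoded by mitochondrial DNA. Hepatocytes are rich in mitochondria, and phenobarbital is a classical activator of the nuclear receptor CAR, which induces drug-metabolizing enzymes in the liver.

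Signals are the authors' deposited log2 values, a difference between groups is phenobarbital minus control on that log2 scale, and a gene was called when limma's moderated test gave an adjusted p under 0.05 (Benjamini-Hochberg, over all 12580 genes). As a check of the labels, Cyp2b10, the standard CAR target, was higher in treated arrays on every day, by 6.21, 6.36, 6.90 and 5.64 on days 1, 7, 28 and 91. The label liver also held, since the 9 hepatocyte markers measured had a mean between 13.3 and 13.6 in every group. Several measures of the arrays moved with treatment. The mean of all probe sets was lower in treated arrays on each day, for example 6.229 ± 0.006 against 6.253 ± 0.006 on day 91 (SD, n = 5 and 5, exact permutation p = 0.00794). The mean of the spiked bacterial controls was lower in treated arrays on day 1 (10.694 ± 0.122 against 10.942 ± 0.028, n = 5 and 4) and day 28 (10.864 ± 0.080 against 11.206 ± 0.236, n = 5 and 5), and higher on day 7 (10.848 ± 0.091 against 9.957 ± 0.287, n = 5 and 5). Single treated arrays also stood apart by markers of other cells. On day 1, treated replicate 3 had an exocrine pancreas mean of 11.034, beside 7.504 to 8.066 in the other arrays of that day. Without it 15 members rose and 12 fell (16.4% and 16.5% of all genes), in place of 11 and 13 (15.8% and 16.7%). On day 7, treated replicate 3 had a neutrophil mean of 8.902 and a Kupffer cell mean of 11.041, beside 5.275 to 7.057 and 9.291 to 10.187 in the other arrays. Without it 11 members rose and 0 fell (5.41% and 11.2% of all genes), in place of 8 and 1 (5.64% and 11.4%). Treated replicates 2 and 4 of day 7 carried muscle markers and are described with that day. The part of these measures in the results was not tested, except where a refit with such a measure as a covariate is given.

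Across the 4 days, the effects on oxidative phosphorylation genes were small and changed with the duration. On day 1, 11 of the 90 tested genes rose (15.8% of all genes did) and 13 fell (16.7% of all genes). On day 7, 8 rose (background 5.64%) and 1 fell (11.4%). On day 28, 6 rose (11.2%) and 12 fell (18.1%). On day 91, none rose (4.62%) and 31 fell (16.1%). In deposited values the first 3 days gave shares of calls below or within a few points of those of all genes, in each direction. On day 91 the share that fell was 34.4% of the members against 16.1% of all genes.

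The medians of the 90 differences were 0.02, 0.01, -0.01 and -0.10 on days 1, 7, 28 and 91, beside 0.006, -0.048, -0.020 and -0.066 for all genes tested. Only 1 tested member differed by 0.5 or more on any day, the muscle isoform Cox6a2 on day 7. Among the 72 subunits used in liver, 8 rose and 12 fell on day 1, 6 rose and 1 fell on day 7, 6 rose and 9 fell on day 28, and 29 fell on day 91 with none higher. The split on the early days depends on how arrays are scaled to each other. With arrays centred on their medians, 21 members rose (21.3% of all genes did) and 8 fell (12.6% of all genes) on day 1. On day 7, 17 rose (7.4%) and 0 fell (6.99%), and on day 28, 12 rose (15.4%) and 7 fell (13.4%). After this centring the share of members that rose on day 7 was thus above that of all genes. With quantile normalization, 4 rose (7.09%) and 5 fell (8.58%) on day 7, and 4 rose (18.7%) and 16 fell (13.6%) on day 28. Day 91 kept its direction under both, with 0 higher and 13 lower after median centring (8.55% of all genes lower) and 0 higher and 24 lower after quantile normalization (9.71% of all genes lower).

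**Figure D1:**
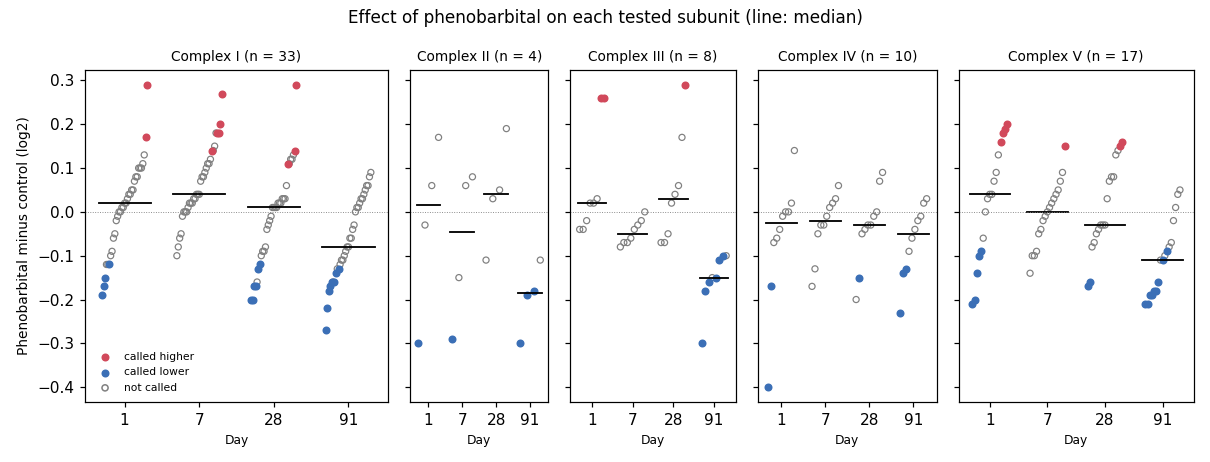
Phenobarbital minus control (log2, vertical axis) for each tested subunit used in liver, by complex and by day (horizontal axis); filled points passed the adjusted p threshold of 0.05 and black lines are medians. On day 91 the called subunits of all 5 complexes lie below 0, while on days 1 and 28 called points lie on both sides of 0 in complexes I and V, and on day 7 those of both complexes lie above 0.

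The 91-day comparison was the one in which all called members moved in one direction, and the complexes are described first there. The mean of the 72 subunits in each array was 12.527, 12.526, 12.542, 12.550 and 12.513 in the 5 controls and 12.428, 12.444, 12.437, 12.464 and 12.429 in the 5 treated arrays. All treated arrays lay below all controls, with group means of 12.440 ± 0.015 and 12.532 ± 0.014 (SD, n = 5 and 5). On days 1, 7 and 28 the same means differed by 0.006, 0.015 and 0.000, and the groups overlapped. The median of all probe sets also differed between the groups, by -0.043, -0.040, -0.034 and -0.047 on days 1, 7, 28 and 91.

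**Figure D2:**
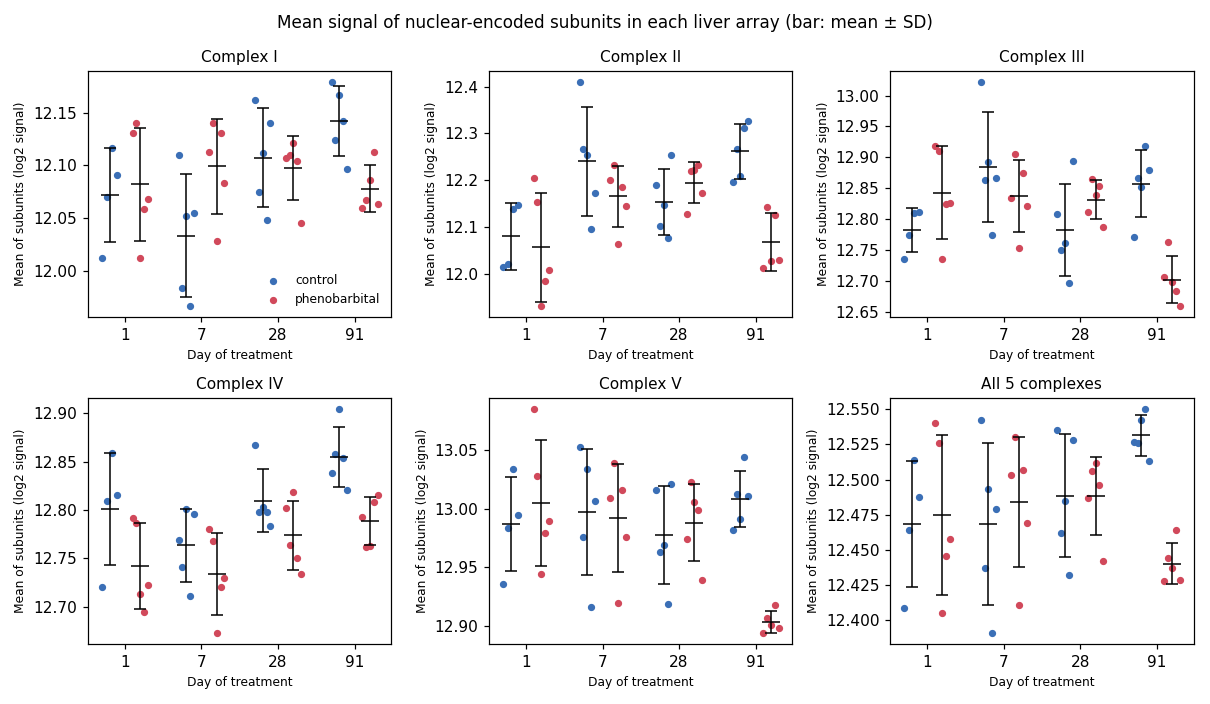
Mean log2 signal of the tested subunits of each complex (vertical axis) in each array, by day of treatment (horizontal axis), with the mean ± SD of each group in black. On day 91 all treated arrays lie below all controls in complexes II, III, IV and V and over all 5 complexes (12.440 against 12.532), while on the other days treated and control arrays overlap.

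Complex II, the succinate dehydrogenase that also works in the citric acid cycle, had 3 of its 4 subunits called lower on day 91. Of all genes 16.1% were called lower on that day. Sdhb, its iron-sulfur subunit, measured 13.00, 13.00, 13.00, 13.06 and 13.08 in the controls and 12.77, 12.89, 12.82, 12.92 and 12.78 in the treated arrays. The groups did not overlap, and Sdhb fell by 12.4% (log2 difference -0.19, SE 0.05, adjusted p = 0.00784). Sdhc, one of the membrane anchors that hold the complex in the inner membrane, measured 11.02, 11.15, 10.88, 11.21 and 11.25 in controls against 10.76, 10.87, 10.76, 10.84 and 10.77 in treated arrays. Its groups were separate by a narrow margin (-0.30, SE 0.09, adjusted p = 0.0199), and the call was lost when control replicate 4 or 5 was left out, when arrays were centred on their medians, when all probe sets of the gene were averaged and when the spike-in mean was a covariate (differences of -0.27 to -0.23, adjusted p = 0.0544 to 0.0637 in these refits). The other anchor, Sdhd, had means of 12.20 ± 0.11 and 12.03 ± 0.07 (-0.18, adjusted p = 0.0245). Sdha, the flavoprotein that oxidizes succinate, was not called (-0.11, adjusted p = 0.118), although a second probe set of Sdha, in a fit over single probe sets, gave -0.18 (adjusted p = 0.0168). Of the 4 assembly factors of complex II, Sdhaf2, which helps to attach the flavin to Sdha, fell by 16.1% (-0.25, SE 0.08, adjusted p = 0.0161), while Sdhaf1, Sdhaf3 and Sdhaf4 were not called on that day (-0.01, -0.12 and 0.03).

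Complex III, which passes electrons from ubiquinol to cytochrome c, had 6 of 8 subunits called lower on day 91, beside 16.1% of all genes. All 8 differences were negative, from -0.30 to -0.10, while the median over all genes was -0.066. Uqcr10, a small accessory subunit, measured 12.31, 12.50, 12.38, 12.53 and 12.53 in controls and 12.17, 12.24, 12.16, 12.13 and 12.07 in treated arrays. It fell by 18.6% with no overlap (-0.30, SE 0.07, adjusted p = 0.00336). The brightest of its 3 probe sets carried this call, and the other probe sets gave -0.04 (adjusted p = 0.758) and -0.13 (adjusted p = 0.157). Uqcrc2, a core protein of the matrix side, was named after its values were seen, as were Uqcrq, Uqcr11, Uqcrh and Uqcrb. Uqcrc2 measured 12.32, 12.31, 12.41, 12.38 and 12.28 in controls and 12.14, 12.25, 12.11, 12.14 and 12.16 in treated arrays, a fall of 11.6% (SE 0.03 on the log2 scale, adjusted p = 0.000477). Its other probe set gave 0.10 (adjusted p = 0.295). The small subunits Uqcrq (-0.15), Uqcr11 (-0.16), Uqcrh (-0.11) and Uqcrb (-0.10) fell as well. The 2 that were not called were Uqcrc1, the other core protein (-0.15, adjusted p = 0.245), and Uqcrfs1, the Rieske iron-sulfur protein (-0.10, adjusted p = 0.141).

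Complex V, the ATP synthase, had 9 of 17 subunits called lower on day 91, beside 16.1% of all genes. The difference was called for 2 of the 5 subunits of the catalytic F1 part and 7 of the 12 of the membrane part and stalk. Atp5b, the catalytic beta subunit, measured 13.35, 13.75, 13.65, 13.75 and 13.72 in controls against 13.40, 13.54, 13.39, 13.38 and 13.47 in treated arrays. Control replicate 1 lay among the treated values and the other 4 controls above all of them (-0.21, SE 0.06, adjusted p = 0.00852). Atp5a1, the alpha subunit, was at the edge of the threshold (-0.18, SE 0.06, adjusted p = 0.047), and the mean over its probe sets gave 0.08 (adjusted p = 0.403). Atp5c1, the gamma subunit that turns inside F1, was not called (0.05, adjusted p = 0.425).

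Atp5g1, Atp5g2 and Atp5g3 encode the same mature c subunit, which forms the rotating ring in the membrane. Atp5g2 measured 11.73, 11.76, 11.64, 11.77 and 11.75 in controls and 11.47, 11.46, 11.44, 11.64 and 11.57 in treated arrays, touching at 1 value (-0.21, SE 0.05, adjusted p = 0.0031). Atp5g1 (-0.19, adjusted p = 0.0226) and Atp5g3 (-0.09, adjusted p = 0.0271) also fell on their chosen probe sets. Over the mean of all its probe sets Atp5g2 gave -0.06 (adjusted p = 0.475). Another 4 small proteins of the membrane part and the stalk, chosen after their values were seen, were called lower: Atp5l (-0.19), Atp5md (-0.18), Atp5mpl (-0.16) and Atp5j (-0.11), each with treated arrays all below controls. Atp5h, the stalk subunit d (-0.02, adjusted p = 0.599; its other probe set was called lower, -0.13, adjusted p = 0.0313), and Atp5k, the small subunit e (-0.10, adjusted p = 0.197), were not called. Atpif1, the natural inhibitor of the ATP synthase and no member by name, differed by -0.04 (adjusted p = 0.861).

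Complex I, the NADH dehydrogenase, had 8 of 33 subunits called lower on day 91, a share of 24.2% against 16.1% of all genes. The 8 were all accessory subunits (8 of 27 tested), and 0 of the 6 core subunits, most of which carry redox centres, were called on their chosen probe sets. Other probe sets of core subunits were called lower in the fit over single probe sets, namely 2 of Ndufs8 (-0.27, adjusted p = 0.00445, and -0.16, adjusted p = 0.0445) and 1 of Ndufv1 (-0.23, adjusted p = 0.0137). Whether core and accessory subunits differ was not tested. Ndufb2, an accessory subunit of the membrane arm, measured 12.29, 12.50, 12.44, 12.52 and 12.47 in controls against 12.09, 12.32, 12.19, 12.16 and 12.10 in treated arrays. Treated replicate 2 lay above control replicate 1, and the difference was -0.27 (SE 0.05, adjusted p = 0.000347). A second bright probe set of Ndufb2 gave -0.28 (adjusted p = 0.0015), and a dim one gave 0.00. Among accessory subunits named after their values were seen, Ndufa7 measured 12.41, 12.41, 12.42, 12.50 and 12.43 in controls and 12.16, 12.25, 12.26, 12.21 and 12.18 in treated arrays, a fall of 14.2% (adjusted p = 0.00223). Ndufb1, Ndufs5, Ndufb6, Ndufa2, Ndufb9 and Ndufc1 fell by between 8.37% and 11.4%. The core subunits Ndufs1, which receives electrons in the peripheral arm, and Ndufv1, which binds NADH, differed by 0.06 and -0.04 on their chosen probe sets and were not called. The assembly factor Ndufaf2 fell by 13.4% (-0.21, adjusted p = 0.00303), with treated arrays between 8.13 and 8.23 and controls between 8.26 and 8.50.

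Complex IV, the cytochrome c oxidase, had 3 of 10 subunits called lower on day 91, beside 16.1% of all genes. Cox8a, the liver form of subunit VIII, measured 12.18, 12.45, 12.40, 12.42 and 12.51 in controls against 12.11, 12.20, 12.09, 12.22 and 12.20 in treated arrays. Control replicate 1 lay among the treated arrays (-0.23, SE 0.07, adjusted p = 0.0124). Cox6c and Cox6b1, chosen after their values were seen, fell by 9.43% and 8.69%, with treated arrays all below controls. Cox4i1 (-0.02, adjusted p = 0.781) and Cox5a (0.02, adjusted p = 0.797), which bind the catalytic core, Cox6a1 (-0.01, adjusted p = 0.828) and Cox7a2 (-0.06, adjusted p = 0.174) were not called. Another probe set of Cox6a1 was called lower in the fit over single probe sets (-0.15, adjusted p = 0.016).

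**Figure D3:**
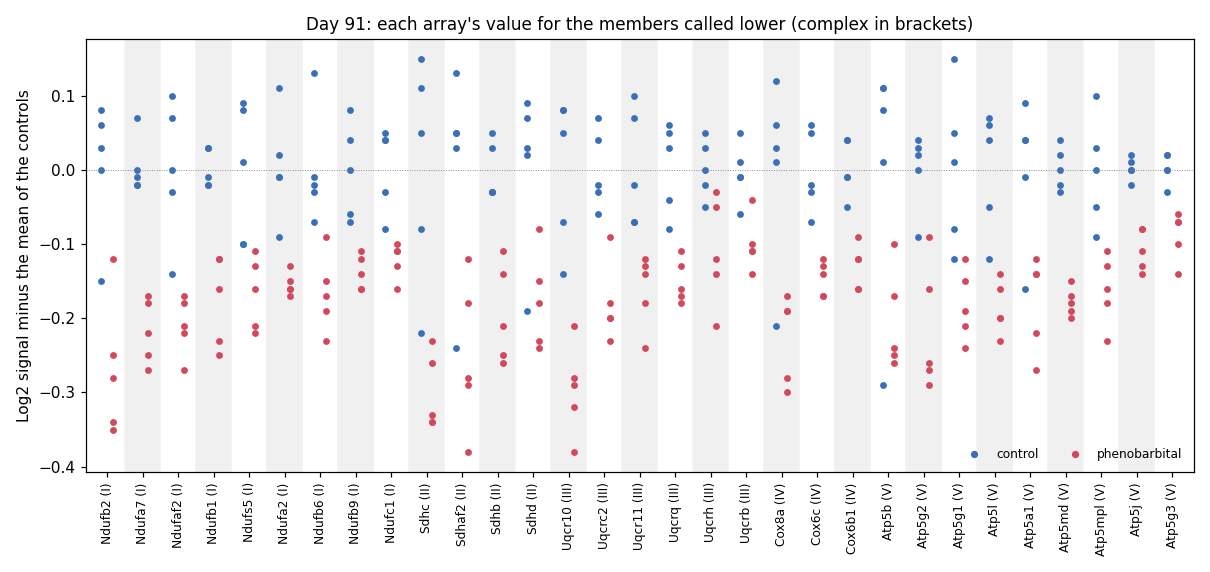
Log2 signal of each day 91 array minus the mean of the 5 controls (vertical axis) for the 31 members called lower, ordered by complex (horizontal axis). Treated arrays lie below all controls in 22 of the 31, and in others a control falls among them, such as control replicate 1 for Atp5b at 13.35.

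Of the 90 tested members, 67 had a negative difference on day 91, when the median over all genes tested was also below 0 (-0.066). In 25 members all 5 treated arrays lay below all 5 controls, which was so for 8.75% of all genes tested. The 4 members that were not tested were dim, with means of 5.33 (Cox6b2, the testis form), 3.98 (Cox7b2), 5.41 (Cox8b) and 4.17 (Ndufb4). Of the 31 called members, 22 showed this separation. The probe sets of the members are bright ones, with 57 of the 72 tested subunits at a mean signal of 12 or more. Of these 57 subunits 23 fell and 0 rose, beside 95 lower and 53 higher among the other 557 genes of that brightness. Signal of different probe sets does not rank their transcripts. Taking all 166 probe sets of members that passed the filter singly, 52 were called lower and 1 higher on day 91. Where the chosen probe set was called and another tested one existed (18 members), the other one was called the same way in 5. Control replicate 1 stood apart on day 91, with a 3' minus 5' difference of the control probe sets for actin and Gapdh, which reflects RNA integrity, of 0.870, beside 0.445 to 0.557 in the other controls and 0.542 to 0.690 in treated arrays. Without it 35 members fell and 2 rose (18.7% and 5.52% of all genes). Without control replicate 4 the number that fell was 19 (11.4% of all genes), the lowest of the refits that left out 1 array.

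Day 28 preceded this with a different picture. The effect on day 91 minus the effect on day 28 was called lower in 25 of 90 members (12.5% of all genes) and higher in 5 (9.13%). Uqcr10 (-0.46, adjusted p = 0.00279), Atp5b (-0.37, adjusted p = 0.00279), Sdhc (-0.49, adjusted p = 0.0103), Uqcrc1 (-0.44, adjusted p = 0.0142) and Ndufb2 (-0.33, adjusted p = 0.00326) had effects that were lower on day 91. The effect on day 28 minus that on day 7 was called higher in 3 members (5.98% of all genes) and lower in 8 (5.78%). Both differences use the same day 28 arrays. The F test of any difference between the 4 days was passed by 42 of 90 members, beside 35.1% of all genes.

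On day 1 the called subunits of complexes I and V went both ways, those of complex III rose, and those of complexes II and IV fell. The 2 called subunits of complex III both rose: Uqcr10 measured 12.31, 12.21, 12.32 and 12.33 in controls and 12.64, 12.67, 12.39, 12.56 and 12.54 in treated arrays, a rise of 20.0% with no overlap (0.26, SE 0.07, adjusted p = 0.00658). Uqcrc1 rose by 19.5% (0.26, SE 0.09, adjusted p = 0.0338), with treated arrays from 12.06 to 12.47 and controls from 11.94 to 12.06. That call of Uqcrc1 was lost with the 3' minus 5' difference (0.18, adjusted p = 0.13) or the spike-in mean (0.19, adjusted p = 0.104) as a covariate, and without control replicate 1, 2 or 3 or treated replicate 1, 2 or 4 (0.21 to 0.27). In complex II, Sdha fell by 18.5%, from 12.40, 12.43, 12.47 and 12.56 in controls to 12.15, 12.32, 12.18, 12.07 and 12.14 in treated arrays (-0.30, SE 0.05, adjusted p = 5.69e-05). The groups of Sdha did not overlap, while its other probe set gave -0.08 (adjusted p = 0.249).

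Complex V split on day 1 into 4 subunits that rose and 5 that fell. Atp5g2 (0.20, SE 0.05, adjusted p = 0.00431), Atp5mpl (0.19), Atp5g1 (0.18) and Atp5k (0.16, adjusted p = 0.0251) rose. Atp5h measured 13.48, 13.56, 13.56 and 13.53 in controls and 13.31, 13.33, 13.33, 13.30 and 13.32 in treated arrays, a fall of 13.7% (SE 0.03 on the log2 scale, adjusted p = 1.23e-06). Its groups did not overlap, but its other probe set gave 0.07 (adjusted p = 0.256). Atp5pb (-0.20), Atp5c1 (-0.14, adjusted p = 0.014), Atp5j2 (-0.10) and Atp5g3 (-0.09) fell too. Of the genes of the c subunit, Atp5g1 and Atp5g2 thus rose while Atp5g3 fell.

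In complex I on day 1, Ndufa8, an accessory subunit that faces the intermembrane space, measured 11.58, 11.71, 11.62 and 11.50 in controls and 11.91, 12.03, 11.87, 11.86 and 11.80 in treated arrays. It rose by 22.4% without overlap (0.29, SE 0.07, adjusted p = 0.0024). Ndufs4 rose by 0.17 (adjusted p = 0.0227) on its chosen probe set, and another probe set of Ndufs4 was called lower (-0.28, adjusted p = 0.034). Ndufa10 (-0.19, adjusted p = 0.0115), Ndufa1 (-0.17), Ndufb11 (-0.15, adjusted p = 0.0228) and Ndufv1 (-0.12, adjusted p = 0.0353) fell. For Ndufb11 and Ndufv1 the direction was the opposite, and not called, without probe sets marked _x_, _s_ or _a_ in their name (0.12 and 0.09). Ndufaf5, an assembly factor that hydroxylates Ndufs7, rose by 20.3% (0.27, adjusted p = 0.0104).

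In complex IV on day 1, Cox5a fell by 10.9% (-0.17, adjusted p = 0.00652) with overlapping groups, and Cox7c fell by 0.40 (adjusted p = 0.0193) on a probe set with a mean signal of only 6.76. The supercomplex factor Cox7a2l measured 11.15, 10.94, 11.06 and 10.90 in controls and 10.70, 10.70, 10.72, 10.71 and 10.74 in treated arrays. It fell by 18.8% with no overlap (-0.30, SE 0.06, adjusted p = 0.000134), and a second of its 3 probe sets was called the same way (-0.24, adjusted p = 0.00427). The isoforms Cox4i2, the form found in lung (0.26, adjusted p = 0.0191), and Ndufa4l2, a form of Ndufa4 known from hypoxic cells (0.27, adjusted p = 0.0149), rose from low signals of 5.87 ± 0.02 and 6.28 ± 0.10 (SD, n = 4). The number that rose on day 1 was 7 without control replicate 1 (13.9% of all genes) and 7 without treated replicate 1 (13.4%), against 11 with all arrays (15.8%).

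Hepatocyte markers were also lower in treated arrays on day 1 (mean of 9 markers 13.345 ± 0.029 against 13.507 ± 0.045, n = 5 and 4, exact permutation p = 0.0159, 2 of 9 called lower) and on day 28 (13.395 ± 0.043 against 13.594 ± 0.108, n = 5 and 5, exact permutation p = 0.00794, 3 of 9 called lower). On day 91 they were 13.397 ± 0.091 and 13.416 ± 0.033 (exact permutation p = 0.683). Of all genes 16.7%, 11.4%, 18.1% and 16.1% were called lower on days 1, 7, 28 and 91. Of 6 endothelial cell genes 1, 2, 4 and 2 were called lower on these days, and of 6 stellate cell genes 0, 1, 2 and 2. Of 6 Kupffer cell genes 0 were called on any day. Of 3 cholangiocyte genes 1 was called lower on day 7 and 1 higher on day 28. Of 3 brown fat genes 1 was called lower on days 1 and 28 and 1 higher on day 7. The part of any of these cell types in the results was not tested.

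Day 28 had directions like those of day 1 for individual members, with other arrays and other controls. On both days 3 members rose (Ndufa8, Uqcrc1 and Atp5k) and 6 fell (Atp5c1, Atp5h, Cox7a2l, Ndufa1, Ndufb11 and Ndufv1). The same count was not made over all genes. Across the 90 members the differences of days 1 and 28 had a Pearson correlation of 0.72 (0.66 over all genes), those of days 7 and 91 of 0.59 (0.64 over all genes), those of days 1 and 91 of -0.20 (0.17 over all genes) and those of days 28 and 91 of -0.17 (0.40 over all genes). These are correlations across genes, which are not independent replicates.

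Among those shared genes, Ndufa8 measured 11.60, 11.47, 11.55, 11.21 and 11.56 in the day 28 controls and 11.76, 11.84, 11.84, 11.75 and 11.66 in treated arrays, again without overlap (0.29, SE 0.07, adjusted p = 0.00188). Uqcrc1 rose by 22.4% (0.29, SE 0.09, adjusted p = 0.0128). With either covariate (0.14 and 0.21) this was no longer called, nor was it without control replicate 4 (0.21, adjusted p = 0.0745). Atp5h measured 13.59, 13.55, 13.57, 13.56 and 13.54 in controls against 13.42, 13.37, 13.43, 13.39 and 13.38 in treated arrays. It fell by 10.7% (-0.16, SE 0.03, adjusted p = 4.04e-05), and its other probe set gave -0.08 (adjusted p = 0.168). Cox7a2l fell (-0.17, adjusted p = 0.0179) with separate groups. Atp5k rose by 0.15 (adjusted p = 0.0344) and was the 1 member called on 3 days, days 1, 7 and 28. Among other refits, its day 28 call was lost with either covariate (0.09 and 0.13) and over the mean of its probe sets (0.11). It was also lost without control replicate 3 or 4 or treated replicate 1, 2 or 3. The calls of Atp5k on days 1 and 7 were lost in several refits too, such as quantile normalization (0.13 on both days).

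Other members were called on day 28 and not on day 1. Atp5b rose by 11.7% (0.16, SE 0.06, adjusted p = 0.029), with controls at 13.52, 13.44, 13.54, 13.42 and 13.67 and treated arrays at 13.61, 13.72, 13.67, 13.75 and 13.64, so that control replicate 5 lay among the treated arrays. This call was lost with the 3' minus 5' difference (0.03, adjusted p = 0.812) or the spike-in mean (0.07, adjusted p = 0.279) as a covariate. It was also lost with quantile normalization (0.12, adjusted p = 0.0888) and without control replicate 2 or 4 or treated replicate 2 or 4. Ndufs1 (-0.17, adjusted p = 0.0348) and Ndufb7 (-0.20, adjusted p = 0.0035) fell, as did the core subunit Ndufs8 (-0.17, adjusted p = 0.00985). Together with Ndufv1, 3 of the 6 core subunits of complex I were called lower on their chosen probe sets on day 28, when 18.1% of all genes fell. These calls depend on the probe set and the setting. Ndufv1 gave 0.12 (adjusted p = 0.159) without marked probe sets and -0.02 (adjusted p = 0.771) over all its probe sets. Of the 5 other probe sets of Ndufs8, 1 was called lower (-0.17, adjusted p = 0.00747) and 4 lay between 0.05 and 0.11. Another probe set of the core subunit Ndufs7 was called higher (0.21, adjusted p = 0.0431). The call of Ndufs1 was lost after median centring (-0.13, adjusted p = 0.123), with either covariate (-0.12 and -0.10), with only the arrays of that day, and without control replicate 1 or 3 or treated replicate 2, 4 or 5. The assembly factors Ndufaf2 (-0.22, adjusted p = 0.000892) and Sdhaf3, which helps to mature Sdhb (-0.23, adjusted p = 0.00799), fell with no overlap. Cox5b fell on 3 of its 5 tested probe sets, its chosen one included (-0.15, adjusted p = 0.0114 in the fit over single probe sets), and rose on a dim one (0.37, adjusted p = 0.00112).

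The 3' minus 5' difference was lower in treated than in control arrays on day 28 (0.461 ± 0.037 against 0.663 ± 0.108, n = 5 and 5, exact permutation p = 0.00794), with no overlap. With this measure as a covariate, 1 member rose and 2 fell on day 28, in place of 6 and 12, and over all genes the share that fell went from 18.1% to 4.90%. On day 91 the same covariate left 27 members lower and 0 higher. On day 28 the number that rose was 16 without control replicate 5 (14.5% of all genes). It was 2 without control replicate 4 (7.93%) or treated replicate 2 (8.74%), and 3 without control replicate 2 (10.2%) or treated replicate 3 (10.5%).

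Day 7 had the fewest calls. In complex I, 5 of 33 subunits were called higher and 0 lower, beside 5.64% and 11.4% of all genes. Positive differences were found in 26 of 33, while the median over all genes was -0.048. Most day 7 calls were lost in the refit without 2 arrays that is described below. Ndufs1 measured 10.71, 10.63, 10.71, 10.74 and 10.90 in controls and 11.02, 10.97, 10.82, 11.13 and 11.07 in treated arrays. Its highest control overlapped its lowest treated array, and it rose by 20.2% (0.27, SE 0.06, adjusted p = 0.00228). Ndufa12, chosen after its values were seen, rose by 13.3% with no overlap (adjusted p = 0.00144), and Ndufab1, which also serves as the mitochondrial acyl carrier protein, rose by 10.2%. Ndufb3 (0.18, adjusted p = 0.0216) and Ndufs7, a core iron-sulfur subunit (0.20, adjusted p = 0.0371), rose with overlapping groups. For Ndufs7 the probe set without an _x_, _s_ or _a_ mark gave -0.04 (adjusted p = 0.787).

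Outside complex I, Atp5k (0.15, adjusted p = 0.0404) and the complex II assembly factor Sdhaf4 (0.18, adjusted p = 0.0332) rose on day 7. Sdhc fell, from 11.67, 11.54, 11.41, 11.19 and 11.16 in controls to 11.08, 11.19, 11.03, 11.11 and 11.10 in treated arrays (-0.29, SE 0.09, adjusted p = 0.0265). The groups of Sdhc overlapped at 11.19. No subunit of complex III or of the liver form of complex IV was called on day 7.

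A muscle isoform of complex IV gave the largest difference of any tested member. Cox6a2, the heart and skeletal muscle form of subunit VIa, measured 6.99, 6.94, 7.09, 7.03 and 6.50 in the day 7 controls and 6.95, 8.81, 7.25, 8.0 and 7.00 in treated arrays. It was called higher (0.69, SE 0.20, adjusted p = 0.0136) through treated replicates 2 and 4. The muscle isoforms Cox7a1 (8.11 and 7.06) and Cox8b (8.68 and 7.30) were high in the same 2 arrays. The other 8 arrays of day 7 lay between 5.50 and 6.55 for Cox7a1 and between 5.12 and 5.56 for Cox8b. Cox7a1 was not called on day 7 (0.17, SE 0.30, adjusted p = 0.751 in the fit over single probe sets). Cox8b was not tested. The mean of the 10 skeletal muscle and heart markers was 7.660 and 7.002 in treated replicates 2 and 4. It was between 4.733 and 4.980 in the other 8 arrays of day 7.

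**Figure D4:**
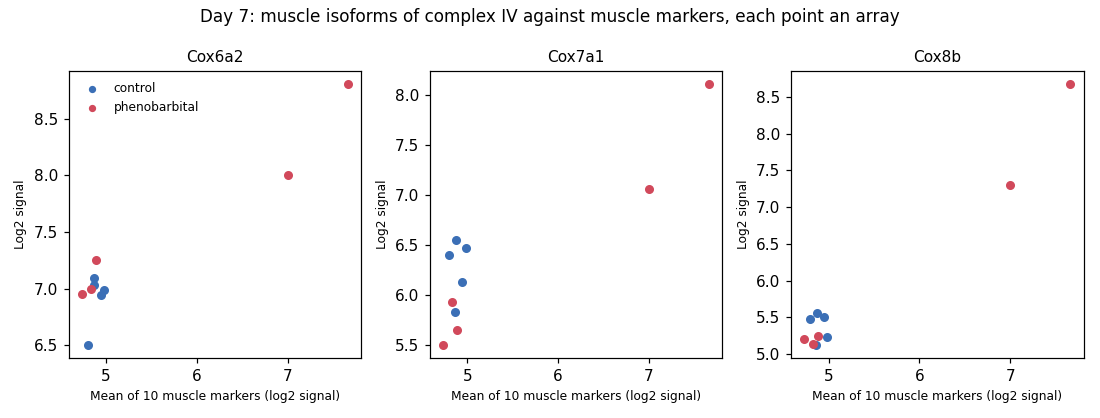
Log2 signal of Cox6a2, Cox7a1 and Cox8b (vertical axes) against the mean log2 signal of 10 muscle markers (horizontal axis) in each of the 10 arrays of day 7. Treated replicates 2 and 4 lie apart in all 3 panels, with muscle marker means of 7.660 and 7.002.

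Without both of these arrays Cox6a2 differed by 0.16 (adjusted p = 0.462). The same refit, chosen after seeing the data, left 2 members higher and 0 lower on day 7 (3.59% and 5.9% of all genes), and has 2 arrays fewer. In it Sdhc (-0.32), Ndufs7 (0.19), Sdhaf4 (0.17), Ndufb3 (0.14) and Atp5k (0.08) were no longer called, with adjusted p from 0.0555 to 0.385, beside differences of -0.29, 0.20, 0.18, 0.18 and 0.15 with all arrays. Leaving out single arrays, the number that rose was 2 without treated replicate 4 (4.17% of all genes) and 3 without treated replicate 1 (5.0%) or control replicate 2 (4.54%). It was 4 without control replicate 4 (4.98%) and 5 without treated replicate 2 (4.91%). The number that fell was 4 without control replicate 4 (11.3% of all genes). It was 0 without control replicate 1 (8.52%) or 2 (9.4%) or treated replicate 3 (11.2%). When the spike-in mean was a covariate, no member was called on day 7 (2.79% of all genes higher and 3.97% lower). With only the 10 arrays of that day 2 rose (3.96% of all genes).

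In all, 7 members were called higher on one day and lower on another: Atp5b, Atp5g1, Atp5g2, Atp5mpl, Ndufb6, Ndufs1 and Uqcr10. Of these, 6 ended with a fall on day 91 after a rise on day 1 or 28, and Ndufs1 rose on day 7 and fell on day 28. The day 28 calls of Atp5b and Ndufs1 were lost in several refits, as described with that day. Over the 4 days, 28 tested members were called on no day, 43 on 1 day, 18 on 2 days and 1 on 3 days. Such counts across days, that of the 7 members included, were not made over all genes. Whether the members differ from other genes in them was not tested. A fall on days 28 and 91 was called in 1 member, Ndufaf2, and a fall on days 1 and 91 in 1 member, Atp5g3. Cox4i1, Cox6a1, Cox7a2 and Uqcrfs1 were among those called on no day on their chosen probe sets.

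**Figure D5:**
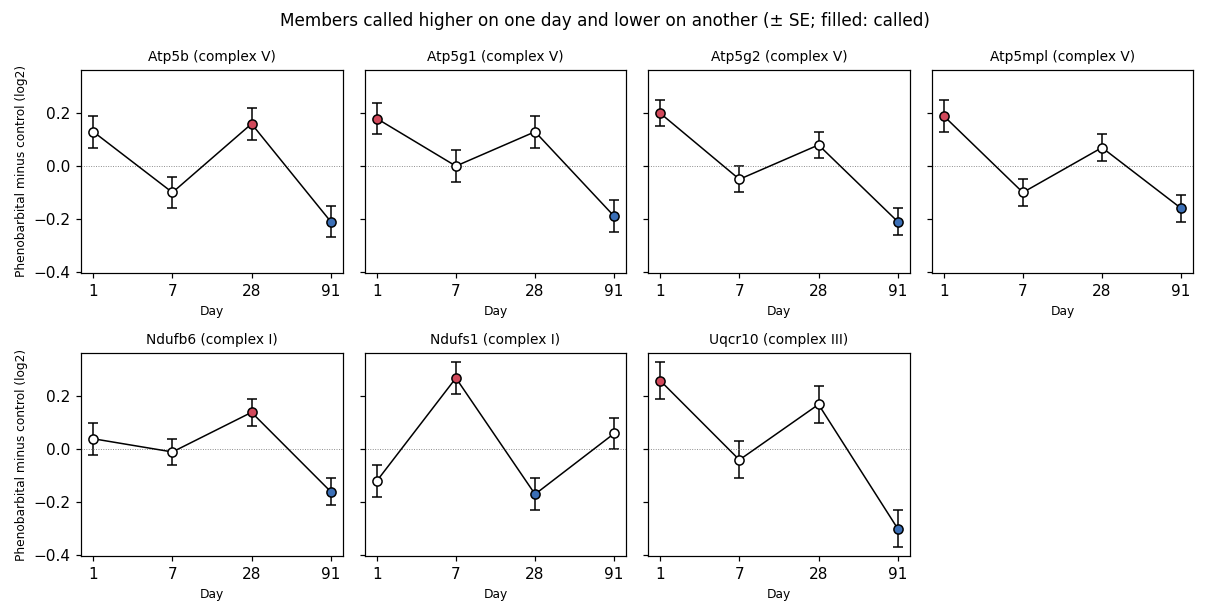
Phenobarbital minus control (log2, vertical axis, with SE) on days 1, 7, 28 and 91 (horizontal axis) for the 7 members called higher on one day and lower on another; filled points were called. Uqcr10 goes from 0.26 on day 1 to -0.30 on day 91, and Ndufs1 is highest on day 7 (0.27).

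The controls themselves moved with time. Between days 1 and 91, 22 of 90 members rose in controls (19.7% of all genes) and 7 fell (16.6%), with a median of 0.06. Complex II was among them: in controls Sdha rose by 0.25 (adjusted p = 0.000338), Sdhb by 0.24 (adjusted p = 0.000675) and Sdhc by 0.28 (adjusted p = 0.023). Ndufb3 rose by 0.35 (adjusted p = 2.17e-05), the largest rise, and Ndufc1 fell by 0.24 (adjusted p = 3.27e-05), the largest fall among tested members. Arrays of different days may also differ in ways other than age, which was not tested.

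After the mean of each group was subtracted, the 72 subunits varied together from array to array, with a median pairwise correlation of 0.31. It was 0.53 within complex III, 0.52 within complex II, and 0.29, 0.24 and 0.29 within complexes I, IV and V. With subunits of the other complexes the medians were 0.33 for complex III, 0.36 for complex II, and 0.29, 0.28 and 0.32 for complexes I, IV and V, so that the last 3 correlated no more within than between. Arrays share labelling and scaling, so these values describe the arrays as well as the livers. Outside the members, the 5 genes whose values followed the mean of the subunits most closely over the 39 arrays were Idh3b (r = 0.84), a subunit of the citric acid cycle enzyme isocitrate dehydrogenase, Mccc1 (0.83), a carboxylase of leucine breakdown, the mitochondrial ribosomal protein gene Mrps21 (0.83), Apoo (0.83), a part of the MICOS complex, and Tmem14c (0.82), a mitochondrial porphyrin transporter.

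Other genes of the mitochondrion were followed as lists. Of 37 further assembly factors tested, 6 rose (16.2%, against 15.8% of all genes) and 3 fell on day 1, and 1 rose and 8 fell (21.6%, against 16.1%) on day 91. Cox18, which inserts a subunit of complex IV into the membrane, rose on day 1 (0.46, adjusted p = 6.37e-05) and day 28 (0.30, adjusted p = 0.00444), and Sco1, a copper chaperone of complex IV, fell on day 1 (-0.45, adjusted p = 0.00163) and day 7 (-0.30, adjusted p = 0.0361). Dmac2 (-0.39, adjusted p = 0.0058) and Tmem126b (-0.35, adjusted p = 0.0147), both assembly factors of complex I, fell on day 91. Of 14 genes for cytochrome c, ubiquinone synthesis and the electron transfer flavoprotein system, 4 fell (28.6%) and 0 rose on day 91. Etfdh, which feeds electrons from fatty acid oxidation to ubiquinone, fell on days 1, 28 and 91 (-0.36, -0.28 and -0.29). Only 1 gene of mitochondrial DNA was tested, ND5 of complex I, with differences of -0.25, 0.18, -0.13 and -0.01 on days 1, 7, 28 and 91, the first 3 of them called.

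Mitochondrial and cytosolic ribosomal genes gave another sequence. On day 1, 34 of 76 mitochondrial ribosomal genes rose (44.7%) and 3 fell, with Mrps18b at 0.48, and 29 of 43 cytosolic ones rose (67.4%) and 0 fell, with Rpl12 at 0.60, beside 15.8% of all genes that rose. On day 91, 8 mitochondrial ones fell and 0 rose, and 3 cytosolic ones fell and 4 rose, so that the shares that fell, 10.5% and 6.98%, were below the 16.1% of all genes. Of 24 genes of mitochondrial import and carriers, 11 rose (45.8%) and 1 fell on day 1, with Tomm40, the channel of the outer membrane, at 0.49 (adjusted p = 0.000583), and 1 rose and 3 fell (12.5%) on day 91, with Tomm40 at -0.31 (adjusted p = 0.0263). Of 17 citric acid cycle genes, 4 rose on day 1 (23.5%), 6 on day 7 (35.3%, against 5.64% of all genes) and 4 on day 28 (23.5%, against 11.2%), among them citrate synthase, Cs (0.46, 0.37 and 0.46), and on day 91 3 fell and 0 rose, a share of 17.6% near that of all genes, among them Suclg2 (-0.22, adjusted p = 0.00824).

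Of 19 regulators of mitochondrial biogenesis, 2 rose and 2 fell on day 91 (10.5% each way, against 4.62% and 16.1% of all genes). On days 1 and 28, 6 and 7 of them fell (31.6% and 36.8%, against 16.7% and 18.1%). The coactivator Ppargc1a fell on day 1 (-1.39, adjusted p = 0.000782) and day 28 (-1.36, adjusted p = 0.000756), and Ppargc1b fell on day 28 (-0.86, adjusted p = 0.00254). Polg, the polymerase of mitochondrial DNA, fell on day 7 (-0.31, adjusted p = 0.00206) and day 91 (-0.51, adjusted p = 2.65e-06), and Tfb2m, a factor of mitochondrial transcription, fell on day 1 (-0.48, adjusted p = 0.0102) and rose on day 91 (0.41, adjusted p = 0.0311).

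Nuclear genes of the respiratory chain are known to carry sites for NRF1 and for ETS family factors such as GABP near their start sites. RefSeq promoters of the GRCm38.p6 build, 250 bases before to 50 bases after each start, were found for 78 of the 94 members and searched on both strands for 3 sets of letters: GCGCATGC for NRF1, CCGGAAG for ETS factors and AAGATGGCG for YY1. The NRF1 letters were present in 14.1% of the members, against 2.80% of all 27025 promoters and 5.18% of those of tested genes. The ETS letters were present in 26.9%, against 9.12% and 17.3%, and the YY1 letters in 7.69%, against 1.49% and 3.10%. Of the 20 subunits called lower on day 91 with a promoter in the table, 9 (45.0%) held the ETS letters, beside 7 of 41 subunits not called on that day (17.1%). For the NRF1 letters these were 4 of 20 (20.0%) and 5 of 41 (12.2%). For the YY1 letters they were 1 of 20 (5.0%) and 4 of 41 (9.76%). Whether any of these shares differ was not tested. The mitochondrial ribosomal genes held the ETS letters in 36.2% and the cytosolic ones in 39.7%. A match of letters is a description and does not show binding.

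To show what such promoters look like, the 110 bases before the start are printed 5' to 3' on the gene's strand for subunits of complexes II to V that fell on day 91, with the NRF1 or ETS letters (or their complement) in capitals. Ndufa8, higher on days 1 and 28 and not called on day 91, is added for comparison. The stretches are Sdhb at chr4:140961161-140961270 (plus strand), Atp5g2 at chr15:102671048-102671157, Uqcr11 at chr10:80406822-80406931, Uqcrh at chr4:116075071-116075180, Cox6b1 at chr7:30626115-30626224 and Ndufa8 at chr2:36049339-36049448 (minus strand for the last 5), all in GRCm38.p6 and outside annotated genes.
Sdhb: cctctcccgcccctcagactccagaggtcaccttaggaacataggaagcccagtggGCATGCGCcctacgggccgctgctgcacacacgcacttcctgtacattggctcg
Atp5g2: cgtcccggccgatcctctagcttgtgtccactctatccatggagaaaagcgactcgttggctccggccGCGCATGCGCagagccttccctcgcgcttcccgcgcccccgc
Uqcr11: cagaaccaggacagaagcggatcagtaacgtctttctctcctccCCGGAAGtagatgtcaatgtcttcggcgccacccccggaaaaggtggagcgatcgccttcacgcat
Uqcrh: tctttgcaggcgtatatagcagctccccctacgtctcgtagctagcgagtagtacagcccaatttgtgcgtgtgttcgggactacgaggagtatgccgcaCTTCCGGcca
Cox6b1: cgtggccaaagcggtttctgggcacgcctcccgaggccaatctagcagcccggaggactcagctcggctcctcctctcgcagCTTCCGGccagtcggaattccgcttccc
Ndufa8: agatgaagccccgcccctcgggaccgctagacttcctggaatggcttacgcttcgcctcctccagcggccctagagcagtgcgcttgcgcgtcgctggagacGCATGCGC

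In Atp5g2 the NRF1 letters occur on both strands and overlap, which gives 1 run of capitals. The stretch of Sdhb holds them once and that of Ndufa8 ends with them at the start site. Uqcr11, Uqcrh and Cox6b1 each hold the ETS letters once in this window. Promoters with the same letters thus belonged to members called in opposite directions on different days.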

How the data were processed

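The authors deposited 1 table of log2 values per probe set and array, and the submitters' processing notes name GCOS with no version. How probes were summarized and arrays normalized is not given in the sources used here. Values were used as deposited. The annotation given with the values named 1 gene for 34945 of 45101 probe sets. Each gene was read from its brightest probe set on average and tested when above the array's median on at least 4 arrays. One mean per group was fitted over the 39 arrays in limma 3.58.1 (R 4.3.3) with a trended prior variance (31 residual and 4.46 prior degrees of freedom), 2-sided, with Benjamini-Hochberg adjustment per comparison. The fit was tested on simulated data. Single measures of arrays were compared by exact 2-sided permutation tests within a day. Precision is limited by the number of arrays.

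Groups follow the duration labelled for each sample, although the protocol text speaks of 28 days only. The members and the gene lists were chosen with earlier results of these data known. Named members are, by rule, for each day the 4 largest rises and falls among called members, the largest called rise and fall of each complex on each day, the 4 smallest p of the F test, and a fixed set of core subunits and isoforms. Of each other list, up to 2 called genes with the largest change per day are named. Genes named beyond this were chosen after their values were seen. Alternatives were quantile normalization, median centring, no filter, a stricter filter (75th percentile), averaged probe sets and probe sets without an _x_, _s_ or _a_ mark. Further ones were no variance trend, array weights, only the arrays of a day, 2 covariates and leaving out each array. The filter left out 4 members (Cox6b2, Cox7b2, Cox8b and Ndufb4).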

Additional observations from a re-analysis of the deposited data

Results flagged for a closer look

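Single arrays stood apart from the rest of their group, by a gap to the nearest value beyond the 95% limit of Dixon's test, for 24 of the 352 sets of values examined (named members and complex means within each group), where about 5% would pass by chance. For Atp5b, the day 91 control replicate 1 read 13.35, against 13.65 to 13.75 in the others of its group. Atp5c1 measured 13.55 in day 91 control replicate 1 and 13.32 to 13.38 in the rest of that group. In day 91 control replicate 5, Cox5a was at 13.51, beside 13.62 to 13.65. For Cox6a2, the day 7 control replicate 5 read 6.50, against 6.94 to 7.09 in the others of its group. Cox7a2 measured 13.51 in day 7 treated replicate 3 and 13.62 to 13.64 in the rest of that group. In day 91 control replicate 1, Cox7a2 was at 13.82, beside 13.66 to 13.70. For Cox8b, the day 1 control replicate 1 read 5.38, against 5.02 to 5.07 in the others of its group. Ndufa10 measured 12.26 in day 91 control replicate 3 and 12.11 to 12.15 in the rest of that group. In day 91 control replicate 3, Ndufa8 was at 11.99, beside 11.62 to 11.72. For Ndufaf2, the day 1 treated replicate 4 read 8.50, against 8.33 to 8.35 in the others of its group. Ndufaf5 measured 7.57 in day 91 treated replicate 3 and 7.38 to 7.41 in the rest of that group. In day 28 control replicate 5, Ndufb11 was at 13.03, beside 13.23 to 13.28. For Ndufb11, the day 91 control replicate 1 read 13.33, against 13.00 to 13.04 in the others of its group. Ndufs7 measured 12.11 in day 91 control replicate 1 and 11.59 to 11.69 in the rest of that group. In day 28 treated replicate 3, Sdha was at 12.63, beside 12.52 to 12.54. For Sdhaf2, the day 1 treated replicate 2 read 9.66, against 9.38 to 9.45 in the others of its group. Sdhaf2 measured 9.41 in day 91 control replicate 1 and 9.68 to 9.78 in the rest of that group. In day 1 control replicate 1, Sdhaf3 was at 8.69, beside 8.89 to 8.91. For Sdhb, the day 7 control replicate 1 read 13.05, against 12.76 to 12.84 in the others of its group. Uqcr10 measured 12.21 in day 1 control replicate 2 and 12.31 to 12.33 in the rest of that group. In day 7 control replicate 1, Uqcrfs1 was at 12.60, beside 12.39 to 12.44. For Uqcrfs1, the day 7 treated replicate 3 read 12.24, against 12.43 to 12.46 in the others of its group. The mean of complex I subunits measured 12.04 in day 28 treated replicate 5 and 12.10 to 12.12 in the rest of that group. In day 28 control replicate 1, the mean of complex IV subunits was at 12.87, beside 12.78 to 12.80. Of these 24, 6 fell on day 91 control replicate 1, the array with the 3' minus 5' difference of 0.870.

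The effect of phenobarbital differed between the 4 days in 23 of the 37 tested named members. The test was limma's F test of the day by treatment interaction (Benjamini-Hochberg adjusted over all genes tested). Many of these members were named for their calls on single days or for a small p of this same test. Their count is therefore no evidence about the members, of which 42 of 90 passed, beside 35.1% of all genes. Among genes of complex I, assembly factors included, the adjusted p was 0.0173 for Ndufa10, 0.00871 for Ndufaf2, 0.0181 for Ndufaf5, 0.000666 for Ndufb11, 0.00157 for Ndufb2, 0.000843 for Ndufs1 and 0.0239 for Ndufs7. Among genes of complex II, assembly factors included, the adjusted p was 0.00183 for Sdha, 0.0233 for Sdhaf2, 0.0478 for Sdhaf4, 0.0124 for Sdhb and 0.00216 for Sdhc. Among genes of complex III the adjusted p was 0.000405 for Uqcr10 and 0.0149 for Uqcrc1. Among genes of complex IV and its supercomplex factor the adjusted p was 0.0286 for Cox5a, 0.00222 for Cox7a2l and 0.00529 for Cox8a. Among genes of complex V the adjusted p was 0.0122 for Atp5a1, 0.00107 for Atp5b, 0.00222 for Atp5c1, 0.000399 for Atp5g2, 9.81e-05 for Atp5h and 0.0144 for Atp5k.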

How the results depend on the processing

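The fall on day 91 kept its direction in every refit run. The members lower ranged from 13 after median centring (8.55% of all genes) to 38 with array weights (24.2% of all genes). The calls of days 1, 7 and 28 moved with the scaling and with single arrays. The size of a median is to be read against an SD of 0.042 between arrays of a group, and the number of arrays limits what can be seen. With arrays centred on their medians, 21 members rose and 8 fell on day 1 (median 0.065), and 17 and 0 on day 7. Day 28 then had 12 and 7, and 13 fell on day 91 (median -0.049). Of all genes so centred, 21.3% rose and 12.6% fell on day 1, 7.4% and 6.99% on day 7, and 15.4% and 13.4% on day 28. With quantile normalization 4 rose and 5 fell on day 7 (7.09% and 8.58% of all genes). With no filter on dim genes 2 fell on day 7 (8.94% of all genes). With the mean of all probe sets 5 rose and 3 fell on day 7 (5.28% and 12.5% of all genes), and Atp5a1 on day 91 was at 0.08. With array weights 14 rose and 3 fell on day 7 (7.4% and 15.7% of all genes). With the same weights 16 rose on day 28 (16.2%) and 3 on day 91 (8.08%). With only the arrays of the 2 groups compared 2 rose and 0 fell on day 7 (3.96% and 8.62% of all genes). With the 3' minus 5' difference as a covariate 3 fell on day 7 (13.2% of all genes), and 1 rose and 2 fell on day 28 (3.27% and 4.9%). The F test was then passed by 22 members (17.9% of all genes), in place of 42 (35.1%). When the spike-in mean was a covariate, 0 rose and 0 fell on day 7 (2.79% and 3.97% of all genes) and 1 rose on day 28 (6.33%). The F test was then passed by 23 (15.5% of all genes), and Ndufs7 on day 7 was at -0.04. Without both arrays with muscle markers, a refit chosen after seeing the data, 2 rose and 0 fell on day 7 (3.59% and 5.9% of all genes). With only probe sets that have no _x_, _s_ or _a_ mark (69 members), 5 fell on day 1 (median 0.065, 17.6% of all genes lower). On day 7, 3 then rose (5.27% of all genes), and on day 28, 4 fell (18.3%). Under that choice the direction turned for Atp5h (0.07), Ndufb11 (0.12) and Ndufv1 (0.09) on day 1, Ndufs7 (-0.04) on day 7 and Ndufb11 (0.03), Ndufb7 (0.09) and Ndufv1 (0.12) on day 28, and Ndufb2 on day 91 was at 0.00 on its dim probe set. The cause of these changes was not tested.

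Leaving out each array in turn, the numbers that rose and fell were 7 to 15 and 9 to 14 on day 1 (median 0.001 to 0.038), 2 to 11 and 0 to 4 on day 7 (-0.013 to 0.032), 2 to 16 and 8 to 12 on day 28 (-0.014 to 0.010), and 0 to 2 and 19 to 35 on day 91 (-0.101 to -0.086). Over all genes these refits gave 13.4% to 16.4% higher and 13.4% to 16.5% lower on day 1, and 4.17% to 5.45% and 8.08% to 11.3% on day 7. They gave 7.93% to 14.5% and 13.8% to 19.1% on day 28, and 3.0% to 5.52% and 10.9% to 18.7% on day 91. The F test was passed by 37 to 48 members, and by 31.2% to 39.5% of all genes. Of the 47 calls of named members, 7 were neither lost nor turned in any refit that gave them a value. No paired analysis was possible because the labels carry no replicate numbers.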
